A study of Mus musculus with 14 samples.

Results

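A set of 9 genes of cellular senescence and the p53 pathway was followed in mouse intervertebral discs, namely Cdkn1a, Cdkn2a, Cdkn2b, Cdkn2c, Trp53, Mdm2, Ccng1, Il6 and Lmnb1. They were picked by gene symbol, as 9 of the 55487 genes in the deposited gene count table. Earlier results of these data were known when this choice was made. RNA was sequenced from caudal discs of 14 male mice, with the discs of each mouse pooled into 1 library. The 3 db/db mice lack a working leptin receptor (Lepr) and were compared with 3 db/+ mice, which carry 1 mutant copy, at about 3 months of age. The 4 STZ-HFD mice were C57BL/6J mice given a high-fat diet for 4 to 6 weeks, 1 injection of streptozotocin (STZ, a toxin of the insulin-making beta cells) at 100 mg/kg, and high-fat diet for a further 12 weeks. Their 4 controls, Con+Veh, were C57BL/6J mice on chow that received the vehicle, and GEO's labels call them wild type. The db and the STZ-HFD mice were separate cohorts, and each was read against the control of its cohort.

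Senescence is a lasting exit from the cell cycle. Damage stabilises p53 (Trp53), which induces the cyclin-dependent kinase (CDK) inhibitor p21 (Cdkn1a), cyclin G1 (Ccng1) and its own ubiquitin ligase Mdm2. A second arm runs through the INK4 inhibitors of CDK4 and CDK6, which are p16Ink4a from Cdkn2a, p15 from Cdkn2b and p18 from Cdkn2c, and Cdkn2a also encodes Arf, an inhibitor of Mdm2. Senescent cells typically lose lamin B1 (Lmnb1) and secrete cytokines such as interleukin-6 (Il6), and p16Ink4a and Il6 are used as senescence markers in disc tissue.

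On GRCm38, the genes lie at chromosome 17 29090976 to 29100727 (Cdkn1a), chromosome 11 69580359 to 69591873 (Trp53) and 40748552 to 40755311 (Ccng1), chromosome 10 117688875 to 117710758 (Mdm2) and chromosome 5 30013114 to 30019981 (Il6). The INK4 genes lie on chromosome 4, at 89274471 to 89294653 (Cdkn2a), 89306299 to 89311039 (Cdkn2b) and 109660876 to 109667189 (Cdkn2c).

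The gene with the highest median level was Cdkn1a, and the medians of the 4 genes of the p53 arm were above those of the INK4 genes. Levels are given as CPM, the read count relative to the library total after scaling by edgeR's TMM factors, and, to compare genes, as CPM per kb of exon. The median over the 14 libraries was 6.00 CPM per kb for Cdkn1a (2.65 to 8.21) and 5.96 for Ccng1 (3.96 to 15.0). Mdm2 followed at 2.99 (2.38 to 4.73) and Trp53 at 2.40 (1.41 to 3.50). The ranges of these 4 genes overlapped, except that every Ccng1 level lay above every Trp53 level. Medians were 0.488 for Cdkn2b, 0.380 for Cdkn2c and 0.282 for Lmnb1, again with overlapping ranges. Cdkn2c reached 2.50 in STZ-HFD replicate 1 and Cdkn2b 1.51 in Con+Veh replicate 3, both above the lowest Trp53 level. Cdkn2a had a median of 0.0766 and Il6 one of 0.00356 CPM per kb, with ranges that overlapped those of Cdkn2b, Cdkn2c and Lmnb1 and lay below those of the p53 arm.

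Depth was 16076908 to 58943169 counts per library, of which 28.1% to 60.2% fell on ribosomal RNA genes. STZ-HFD replicate 1 had the lowest total and a TMM factor of 1.52, against 0.70 to 0.75 in the other STZ-HFD libraries. Library names end in RIP, which the labels do not explain, for replicate 2 of Con+Veh and for replicate 4 of STZ-HFD. The name of STZ-HFD replicate 1 ends in NT, which the labels do not explain either. The marker genes of disc tissue were present, with a summed level of 8 chondrocyte-like genes of 16730 to 57365 CPM in the db cohort and 3563 to 16208 CPM in Con+Veh. In STZ-HFD that sum was 948 to 1993 CPM, below every Con+Veh library. A pair of notochordal markers were at 0 counts in a whole group, Noto in db/db and Shh in db/+. Skeletal muscle genes were also present in every library, with a sum over 10 genes of 3203 to 25546 CPM. In bulk tissue, fewer cells of a type and less RNA per cell cannot be told apart.

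**Figure D1:**
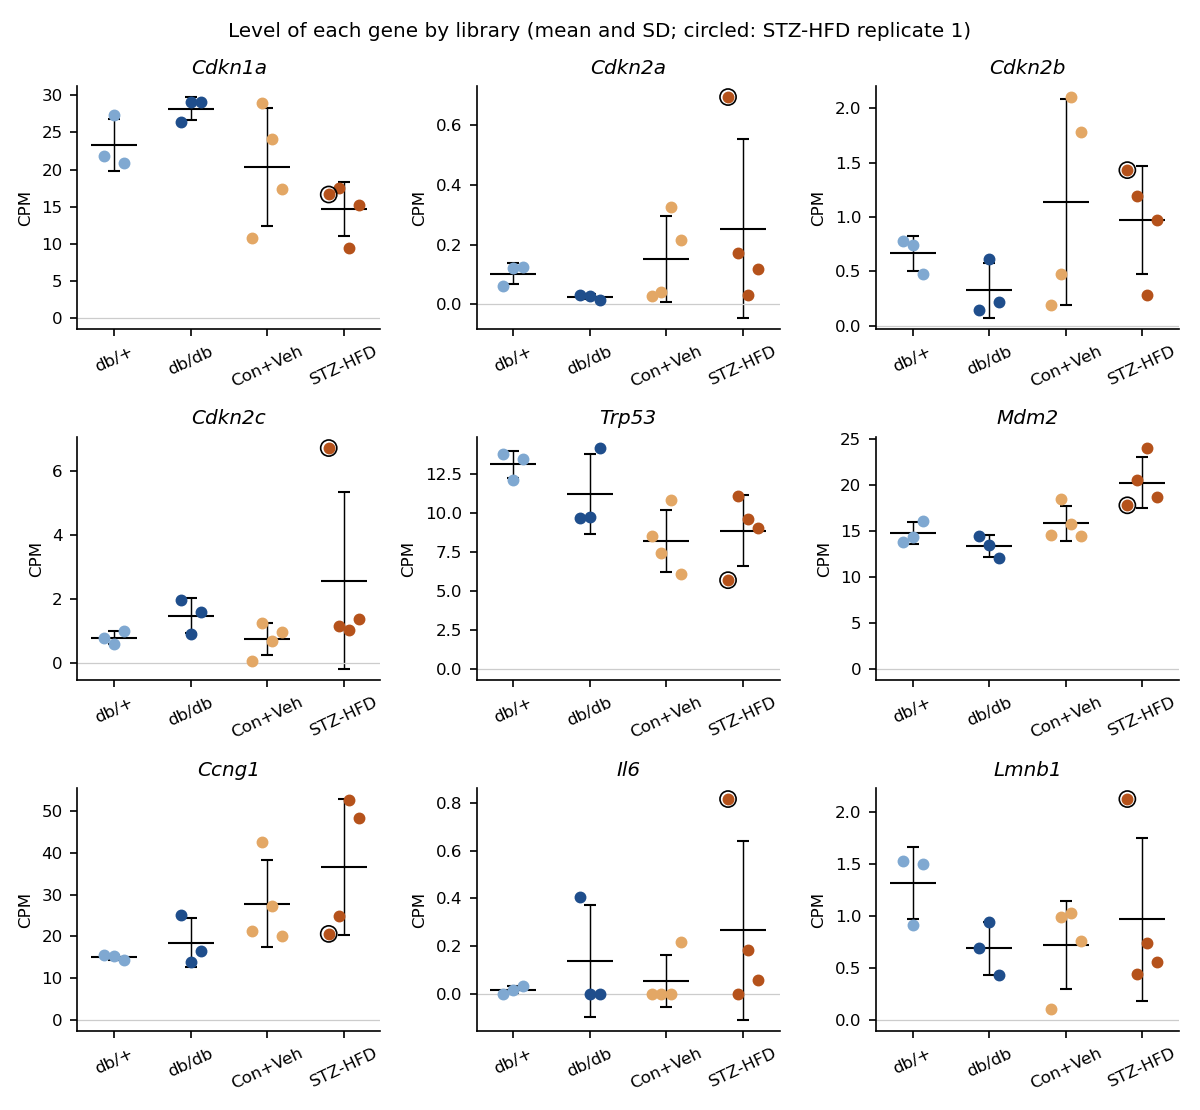
CPM (y axis) of the 9 genes in each library, by group (x axis). Points are libraries, black bars the group mean and whiskers the SD, with n = 3 for db/+ and db/db and n = 4 for Con+Veh and STZ-HFD. The circled STZ-HFD replicate 1 has the highest level of Cdkn2a (0.695), Cdkn2c (6.71), Il6 (0.818) and Lmnb1 (2.13 CPM) of the 14 libraries.

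The promoters of the p53 arm are shown because the comparison of p53 targets rests on genes that p53 can bind directly. The windows are the 250 bases before the RefSeq start site (GRCm38.p6), read 5′ to 3′ on the gene's strand, and capitals mark matches to the p53 decamer, the 10-base unit of the p53 response element. The decamer consensus is its own reverse complement, so 1 search covers both strands. Cdkn1a has windows at a distal start (chr17:29090729-29090978, plus strand) and a proximal start (chr17:29093519-29093768, plus strand). The windows of Mdm2 (chr10:117710759-117711008) and Ccng1 (chr11:40755287-40755536) lie on the minus strand.
Cdkn1a distal: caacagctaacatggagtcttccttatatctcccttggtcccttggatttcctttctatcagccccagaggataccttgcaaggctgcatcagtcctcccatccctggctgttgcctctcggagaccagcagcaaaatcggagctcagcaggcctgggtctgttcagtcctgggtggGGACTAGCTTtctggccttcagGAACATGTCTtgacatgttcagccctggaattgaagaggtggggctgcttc
Cdkn1a proximal: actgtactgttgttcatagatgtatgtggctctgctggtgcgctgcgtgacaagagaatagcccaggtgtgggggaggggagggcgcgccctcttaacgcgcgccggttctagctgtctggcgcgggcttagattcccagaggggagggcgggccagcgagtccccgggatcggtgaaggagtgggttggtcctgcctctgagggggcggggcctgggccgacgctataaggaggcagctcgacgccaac
Mdm2: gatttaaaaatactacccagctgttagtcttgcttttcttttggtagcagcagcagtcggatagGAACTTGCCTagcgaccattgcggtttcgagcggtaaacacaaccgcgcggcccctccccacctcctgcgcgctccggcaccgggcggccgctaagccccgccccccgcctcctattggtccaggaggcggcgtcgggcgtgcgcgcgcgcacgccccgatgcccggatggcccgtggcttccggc
Ccng1: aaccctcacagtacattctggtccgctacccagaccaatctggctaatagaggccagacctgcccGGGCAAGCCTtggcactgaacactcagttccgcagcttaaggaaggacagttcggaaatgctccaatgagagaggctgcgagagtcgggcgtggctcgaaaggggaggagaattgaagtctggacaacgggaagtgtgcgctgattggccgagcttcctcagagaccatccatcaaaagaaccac
The distal Cdkn1a window holds 2 decamer matches, starting 73 and 51 bases before the start, and the proximal window holds 0. Mdm2 has 1 match 186 bases before its start and Ccng1 has 1 at 185 bases. Trp53 and Il6 have 1 match each, at 75 and 204 bases. The 5 windows of Cdkn2a, Cdkn2b and Cdkn2c hold 0. Among 32851 promoter windows of this length, 7.13% hold at least 1 decamer. The search for full elements, which are pairs of decamers, allowed no spacer between the decamers and no base off the consensus. It matched in 3 of these windows and in 0 of the 11 windows of 8 of these genes. Lmnb1 was not searched. Pairs with a spacer, such as the 2 decamers of the distal Cdkn1a window, were not counted. Pairs with a base off the consensus were not counted either. In the distal Cdkn1a window, the 10 bases right after the second match (tgacatgttc) leave the consensus only at their first base. Full elements with a spacer or with such a base were therefore not assessed. A match of letters describes the sequence and does not show binding.

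The first question was whether the genes differed between db/db and db/+ discs. In limma's voomWithQualityWeights fit over 16915 genes, a gene was called when its Benjamini-Hochberg adjusted p was under 0.05 and its log2 fold change was 1 or more in size. Of the 9 genes, 7 passed the filter on low counts, and 0 of the 7 were called, against 1.66% of all genes tested (1.23% higher and 0.432% lower). At an unadjusted p under 0.05 the count was also 0, where 21.1% of all genes passed. The quasi-likelihood test of edgeR and DESeq2 each called 0 of them too. The median log2 fold change of the 7 genes was −0.14, beside −0.04 over all genes.

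Cdkn1a was measured at 26.4, 29.2 and 29.1 CPM in db/db and at 21.8, 27.3 and 20.8 CPM in db/+. Every db/db library lay above the db/+ median, but the groups overlapped by 1 library. The log2 fold change was 0.27 (SE 0.25, 95% interval −0.26 to 0.80, limma adjusted p = 0.574). Both bounds were smaller in size than the fold minimum of the call.

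Trp53, the transcription factor itself, was at 9.69, 9.71 and 14.1 CPM in db/db and at 13.7, 12.1 and 13.5 CPM in db/+. The highest value of the db cohort was a db/db library, and the other 2 db/db libraries were its lowest. Mdm2, which marks p53 for degradation, was at 14.5, 13.5 and 12.1 CPM against 13.8, 14.4 and 16.1 CPM, for a log2 fold change of −0.14 (SE 0.19, 95% interval −0.53 to 0.25). Ccng1, a p53-induced cyclin that does not drive division, was at 25.1, 13.9 and 16.6 CPM against 15.5, 15.3 and 14.4 CPM. The db/+ libraries of Ccng1 lay within about 1 CPM of each other, and db/db replicate 1 was the high one.

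The larger fitted differences in this model were of genes with few reads. Lmnb1, a lamin of the nuclear envelope, was at 0.689, 0.942 and 0.438 CPM in db/db and at 1.53, 0.917 and 1.4997 CPM in db/+. All 3 db/db libraries were below the db/+ median, and db/+ replicate 2 fell inside the db/db range. The log2 fold change of −0.90 (SE 0.48, 95% interval −1.90 to 0.10) had the smallest limma adjusted p of the 7 genes here, 0.286. Cdkn2c was at 1.96, 0.900 and 1.59 CPM against 0.796, 0.588 and 0.990 CPM, with all db/db libraries above the db/+ median and a log2 fold change of 0.86 (SE 0.50, adjusted p = 0.338 by limma). Cdkn2b was at 0.141, 0.614 and 0.219 CPM against 0.775, 0.744 and 0.479 CPM, and its log2 fold change of −1.21 had an SE of 0.87.

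In the same comparison the median summed level of skeletal muscle genes was 3283 CPM in db/db and 8409 CPM in db/+, with 0 of 10 genes fitted higher and 1 called lower. That of 7 adipocyte genes was 282 to 431 CPM in db/db and 148 to 179 CPM in db/+, with 3 called higher. The part of these markers in the differences of the 9 genes was not tested.

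The second question was the same for STZ-HFD against Con+Veh. Again 0 of 7 genes were called, by limma as by edgeR and DESeq2, against 2.61% of all genes tested by limma (1.3% higher and 1.31% lower). For 3 genes, limma gave an unadjusted p under 0.05, namely Cdkn1a, Ccng1 and Mdm2, where 17.9% of all genes did. Cdkn1a was lower and the other two were higher. The median log2 fold change of the 7 genes was 0.09, beside −0.04 over all genes.

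Cdkn1a was at 16.6, 17.6, 9.42 and 15.2 CPM in STZ-HFD and at 10.7, 29.0, 24.2 and 17.5 CPM in Con+Veh. All 4 STZ-HFD libraries lay below the Con+Veh median, and Con+Veh replicate 1 was below 3 of them. The log2 fold change was −0.70 (SE 0.24, 95% interval −1.20 to −0.19), and the limma adjusted p was 0.123. Con+Veh replicate 1 had the lowest quality weight of the fit, 0.275, and the limma adjusted p was 0.0667 without it. Without STZ-HFD replicate 3 the log2 fold change was −0.40 (limma adjusted p = 0.695), and it was −0.47 without Con+Veh replicate 3 (0.735). With edgeR's quasi-likelihood test, which gives no weights, the log2 fold change was −0.47 with an adjusted p of 0.518.

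Mdm2 was at 17.8, 20.6, 24.1 and 18.7 CPM in STZ-HFD and at 14.6, 18.6, 15.8 and 14.5 CPM in Con+Veh. All STZ-HFD libraries lay above the Con+Veh median, and the groups overlapped through Con+Veh replicate 2. The log2 fold change was 0.41 (SE 0.17, 95% interval 0.05 to 0.78, limma adjusted p = 0.204). Ccng1 was at 20.6, 24.9, 52.7 and 48.4 CPM against 21.3, 42.7, 27.4 and 20.0 CPM. Its high libraries were STZ-HFD replicates 3 and 4 and Con+Veh replicate 2, 2 of which carry the RIP ending. The log2 fold change was 0.69 (SE 0.26, limma adjusted p = 0.167), and 0.58 with an adjusted p of 0.410 without both RIP libraries. It was 0.43 without STZ-HFD replicate 3 (limma adjusted p = 0.741) and 0.45 without STZ-HFD replicate 4 (0.540).

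**Figure D2:**
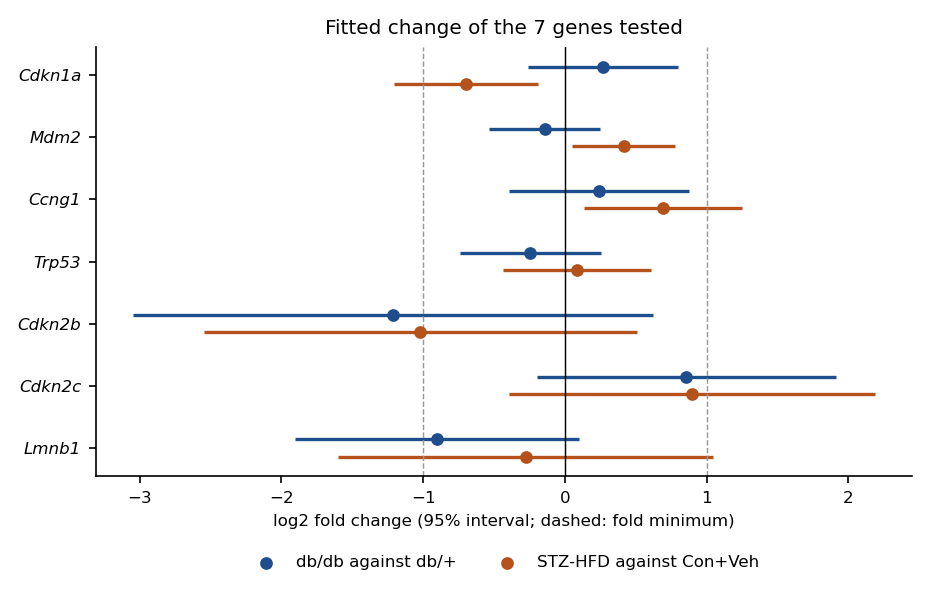
Log2 fold change (x axis) of the 7 genes that passed the filter (y axis), db/db against db/+ and STZ-HFD against Con+Veh, with 95% intervals from the limma fit. In the STZ-HFD model the intervals of Cdkn1a (−1.20 to −0.19), Mdm2 (0.05 to 0.78) and Ccng1 (0.14 to 1.25) leave out 0, and 0 genes passed the adjusted threshold.

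The summed level of skeletal muscle genes also differed within the STZ-HFD cohort. It was 22144 to 25546 CPM in STZ-HFD replicates 2 to 4, 9298 CPM in STZ-HFD replicate 1 and 8944 to 12067 CPM in Con+Veh, with all 10 muscle genes fitted higher and 4 called. STZ-HFD replicate 1, the STZ-HFD library with the muscle level of the controls, also had the lowest Mdm2 (17.8 CPM) and Ccng1 (20.6 CPM) of its group. Without that library the log2 fold change of Mdm2 was 0.46 and that of Ccng1 0.81. Mdm2 was highest of the 14 libraries in STZ-HFD replicates 3, 2 and 4, at 24.1, 20.6 and 18.7 CPM, followed by Con+Veh replicate 2 at 18.6 CPM. Ccng1 did not follow the muscle level in every library. STZ-HFD replicate 2 had 23526 CPM of muscle genes with Ccng1 at 24.9 CPM. Con+Veh replicate 2 had 10525 CPM with Ccng1 at 42.7 CPM. Cdkn1a was higher in STZ-HFD replicate 2 (17.6 CPM) than in Con+Veh replicate 1 (10.7 CPM), which had 12067 CPM of muscle genes. The part of the muscle level in these values was not tested.

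**Figure D3:**
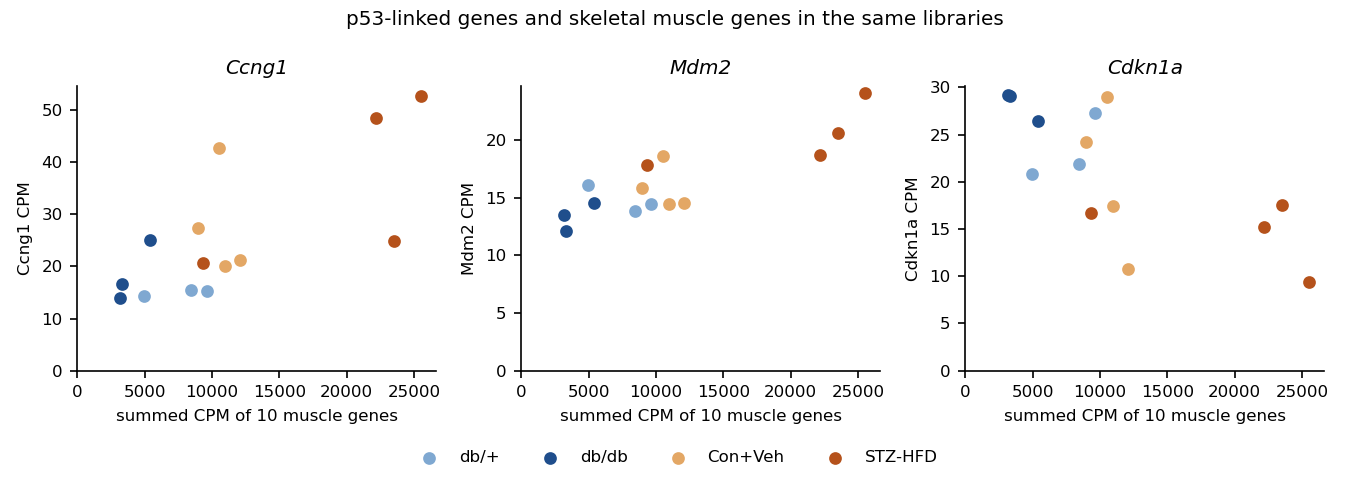
CPM of Ccng1, Mdm2 and Cdkn1a (y axes) against the summed CPM of 10 skeletal muscle genes (x axis), 1 point per library, coloured by group. The 3 STZ-HFD libraries with 22144 CPM or more of muscle genes include the 2 highest levels of Ccng1 (52.7 and 48.4 CPM) and the lowest level of Cdkn1a (9.42 CPM), while the other one has Ccng1 at 24.9 CPM, below Con+Veh replicate 2 (42.7 CPM).

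The genes most like each of these, by Pearson's r of log2 CPM over the 14 libraries, were named by rule as the 3 with the highest r. For Mdm2 they were Dapk2 (r = 0.918), Hk2 (0.917), a hexokinase, and Unc45b (0.911), a myosin chaperone of muscle. For Ccng1 they were Fxr1 (0.955), Asb5 (0.952) and Ghitm (0.949). For Cdkn1a they were 9330160F10Rik (0.918), Ms4a4c (0.893) and Cstf2 (0.890). For Trp53 they were Pgghg (0.910), Ext2 (0.867) and Fcgrt (0.866). For the low genes they were Nxf7, D330041H03Rik and Mmp28 (0.844 to 0.853) with Cdkn2b, Mospd2, Rmdn2 and 2310010J17Rik (0.928 to 0.939) with Cdkn2c, and Gm16835, Snhg4 and Plekhg6 (0.911 to 0.920) with Lmnb1. These values were the highest of 16915 and the libraries share group and depth, so they describe the pattern and carry no test.

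Trp53 was at 5.68, 11.1, 9.58 and 9.02 CPM in STZ-HFD and at 8.49, 7.44, 10.8 and 6.11 CPM in Con+Veh, with a log2 fold change of 0.09. Cdkn2b was at 1.43, 1.20, 0.278 and 0.976 CPM against 0.189, 0.475, 2.10 and 1.78 CPM. The 2 highest and the lowest libraries of that gene in this cohort were Con+Veh, and its fitted log2 fold change was −1.02 (SE 0.72). Without the quality weights that value was 0.45, of the opposite sign. Lmnb1 was at 2.13, 0.445, 0.741 and 0.562 CPM in STZ-HFD and at 0.108, 0.992, 1.03 and 0.756 CPM in Con+Veh, with a fitted log2 fold change of −0.28 that was 0.42 by edgeR.

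Cdkn2c stood apart through 1 library. It was at 6.71 CPM in STZ-HFD replicate 1 and at 1.16, 1.05 and 1.39 CPM in the other three, against 0.0811, 1.24, 0.701 and 0.972 CPM in Con+Veh. The log2 fold change was 0.90 (SE 0.61, limma adjusted p = 0.480), and 0.70 without STZ-HFD replicate 1. It was 1.78 in edgeR and 1.82 in DESeq2, which do not weight libraries down, with adjusted p of 0.323 and 0.164.

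Cdkn2a and Il6 did not pass the filter and are described by their counts. Cdkn2a had 2, 2 and 1 counts in db/db, 3, 7 and 8 in db/+, 1, 2, 7 and 4 in Con+Veh and 17, 5, 1 and 4 in STZ-HFD. In CPM, every db/db library was below every db/+ library, and 25.8% of all genes tested had groups without overlap in that model. The difference of mean log2 CPM was −1.04, with a two-sided exact permutation p of 0.10, the smallest that 3 against 3 can give. In the STZ-HFD model the difference was 0.43 (exact permutation p = 0.629), and −0.18 without STZ-HFD replicate 1. With the filter on low counts removed, limma fitted Cdkn2a at −0.89 in that model with all libraries kept, of the opposite sign (limma adjusted p = 0.517).

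Il6 had 26, 0 and 0 counts in db/db and 0, 1 and 2 in db/+. It had 0, 0, 0 and 4 counts in Con+Veh and 20, 0, 6 and 2 in STZ-HFD. In each diabetic group 1 library, replicate 1 in both, held most of the counts, and 7 of the 14 libraries were at 0. Estimated transcript counts, which cover only some transcripts of Il6, were at 0 for Il6 in all 14 libraries. Without db/db replicate 1 the difference of mean log2 CPM in that model turned from 0.70 to −0.40. The exact permutation p was 1 in the db model and 0.371 in the STZ-HFD model. A count of 0 allows up to 3 counts, which is 0.0509 to 0.187 CPM before TMM scaling, so differences below that level were not detectable at this depth.

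The Cdkn2a locus, on the minus strand, makes p16Ink4a and Arf from separate first exons. In the deposited transcript table, the Ink4a form Cdkn2a-201 (first exon 89281986 to 89282192) and the Arf form Cdkn2a-202 (first exon 89294334 to 89294653) were both at 0 estimated counts in all 14 libraries. The gene counts of 1 to 17 could therefore not be divided between the products. Its neighbour Cdkn2b had 7 to 45 counts. The longest run of bases that Cdkn2a-201 shares with Cdkn2b-201 is shown because the INK4 genes are related and reads could be split between them.
Cdkn2a and Cdkn2b shared run: cgggaaggcttcctggacacgct
The run is 23 bases long, at positions 316 to 338 of the 852 bases of Cdkn2a-201 and 483 to 505 of Cdkn2b-201. With Cdkn2c-201 the longest run shared by either was 11 bases.

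The Cdkn1a transcripts were described because the gene has separate start sites. Nearly all estimated counts fell on Cdkn1a-201 and Cdkn1a-205, whose starts on chromosome 17 are at 29093769 and 29093781, next to the proximal window printed above. The transcripts that start distally, at 29090979 and 29090976, next to the window with the decamer matches, had 1 estimated count in all, in STZ-HFD replicate 4, of 5056 for the gene. The share on Cdkn1a-205 was 49.6%, 31.1% and 50.8% in db/db and 26.3%, 10.9% and 28.2% in db/+. Every db/db share was above every db/+ share, with means of 43.8% ± 11.02 and 21.8% ± 9.46 (SD, n = 3 each) and a two-sided exact permutation p of 0.10, the smallest possible. This share was chosen after its values were seen. How many other genes have transcript shares that separate the groups in this way was not computed. The estimate also varied widely between single libraries of the STZ-HFD cohort, as given next.

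In the STZ-HFD cohort the estimate went from 0% on Cdkn1a-205 in Con+Veh replicate 1 to 98.7% in STZ-HFD replicate 3, with 109 and 103 estimated counts for the gene. The other Con+Veh shares were 35.0%, 13.8% and 43.5%, and the other STZ-HFD shares were 6.49%, 5.31% and 19.7%. The groups overlapped (exact permutation p = 0.829).

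**Figure D4:**
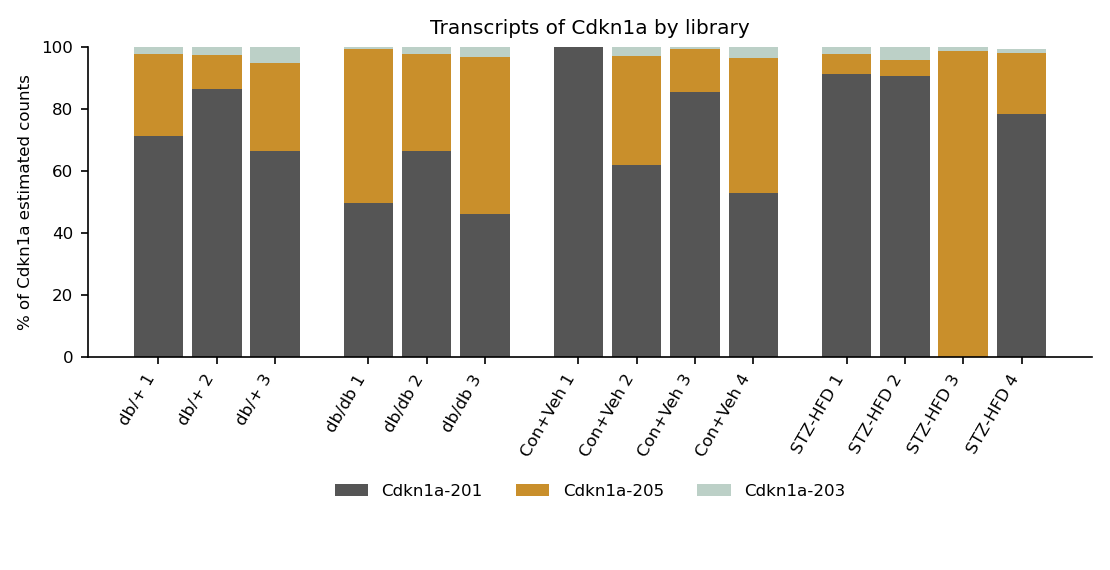
Share of the estimated transcript counts of Cdkn1a (y axis, percent) on Cdkn1a-201, Cdkn1a-205 and Cdkn1a-203 in each library (x axis), as stacked bars. The Cdkn1a-205 share is 31.1% to 50.8% in db/db and 10.9% to 28.2% in db/+, and STZ-HFD replicate 4 also has 1 count on a distal transcript that is not drawn.

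The last comparison set the change in db/db against the change in STZ-HFD, as a difference of log2 fold changes. Cohort, age and schedule also differed between the models, and their part was not tested. Limma called 0 of 7 genes, against 1.77% of all genes, and edgeR and DESeq2 each called 0. Cdkn1a and Mdm2 had an unadjusted p under 0.05 in limma, where 17.3% of all genes did. Cdkn1a, at 0.27 in db/db and −0.70 in STZ-HFD, differed by 0.96 (SE 0.35, limma adjusted p = 0.159). Mdm2, at −0.14 and 0.41, differed by −0.56 (SE 0.25, adjusted p = 0.264 by limma). Over the lists, the genes with the smallest p that were not called were Phlda3 (−1.43) and Tigar (−1.37) among p53 targets, Cdkn1c (1.41), Mcm6 (1.14), Mki67 (−1.30), E2f5 (1.18), E2f8 (−1.85), H2ax (−1.58), H2az1 (0.95), Usp7 (0.57), Tyk2 (−1.07) and Osmr (0.87).

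The wider pathways were read from 9 lists holding 180 genes. Of 30 tested p53 target genes, 7 had an unadjusted p under 0.05 for db/db, where 21.1% of all genes did. For STZ-HFD there were 8, where 17.9% of all genes did. The list medians were 0.11 and 0.12, each beside −0.04 over all genes, with 17 and 18 positive log2 fold changes. Limma called 1 of the 30 higher in each model. Of all genes, 1.23% were called higher for db/db and 1.3% for STZ-HFD. The gene in db/db was Trp53inp1, a stress protein induced by p53, at 18.3, 19.2 and 17.9 CPM against 9.28, 7.58 and 6.57 CPM. Its log2 fold change was 1.26 (SE 0.25, limma adjusted p = 0.0246), and the adjusted p was 0.0616 to 0.0875 without db/db replicate 1, 2 or 3 or db/+ replicate 2 or 3. The gene in STZ-HFD was Tigar, which lowers glycolytic flux, at 9.12, 13.3, 21.2 and 14.1 CPM against 5.97, 9.46, 5.33 and 9.51 CPM (log2 fold change 1.20, limma adjusted p = 0.0296). Tigar was not called without both RIP libraries (adjusted p = 0.111 by limma), or without replicate 3 or 4 of either group (0.0863 to 0.475), and its lowest value in the group was that of STZ-HFD replicate 1.

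Among 13 regulators of p53 and DNA damage kinases, 0 were called in either model, with medians of −0.14 and −0.13. An unadjusted p under 0.05 was found for 1 in db/db and 3 in STZ-HFD, beside 21.1% and 17.9% of all genes. Kat5 (−0.84) and Usp7 (0.50) had the smallest p in db/db, and Mdm2 and Ep300 (−0.43) in STZ-HFD. The 5 tested CDK inhibitors had 0 calls in either model, with 2 and 1 at an unadjusted p under 0.05. Cdkn1c, which encodes p57, was at 13.6, 25.7 and 36.4 CPM in db/db and at 10.6, 7.58 and 15.4 CPM in db/+ (log2 fold change 1.17, limma adjusted p = 0.0586), and passed without db/db replicate 1 (adjusted p = 0.0466). Cdkn1b, which encodes p27, was at 58.2, 59.2 and 63.8 CPM against 44.6, 35.4 and 41.0 CPM. Its groups did not overlap, as in 25.8% of all genes in that model. The log2 fold change of Cdkn1b was 0.60, with a limma adjusted p of 0.127.

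Of 19 genes of the cyclin D, RB and E2F axis that the INK4 proteins restrain, 1 was called. In STZ-HFD 1.31% of all genes were called lower. Ccnd1, cyclin D1, fell in STZ-HFD, at 12.6, 32.1, 15.1 and 22.03 CPM against 55.5, 26.9, 46.3 and 35.8 CPM (log2 fold change −1.08, SE 0.25, limma adjusted p = 0.0269). The groups overlapped through STZ-HFD replicate 2 and Con+Veh replicate 2, and the limma adjusted p was 0.0903 without both RIP libraries and 0.0959 to 0.394 without replicate 3 or 4 of either group. In db/db, 15 of the 19 genes had a negative log2 fold change, with a median of −0.36 and 0 called. An unadjusted p under 0.05 was found for 3 of the 19, where 21.1% of all genes had one. The smallest p there were those of Ccnd3 (−0.79) and E2f4 (−0.50), a cyclin D and an E2F repressor.

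Proliferation genes leaned the same way in db/db, where 15 of 18 were negative, with a median of −0.36 beside −0.04 over all genes. In that model 0.432% of all genes were called lower. The 1 called gene was Mki67, which encodes the Ki-67 protein of dividing cells, at 13.5, 14.02 and 11.3 CPM against 61.6, 22.4 and 35.6 CPM. It fell by 1.47 on the log2 scale (SE 0.31, limma adjusted p = 0.0284), and the adjusted p was 0.0541 to 0.0904 without db/db replicate 1, 2 or 3 or db/+ replicate 1 or 3. In STZ-HFD the median of this list was −0.05, with 0 called and 1 at an unadjusted p under 0.05, Mcm6 (−0.69), followed by Mcm4 (−0.54), both of the replication helicase. Of 13 lamin, nuclear envelope and chromatin genes, H2az1, a histone variant, was called higher in db/db (log2 fold change 1.37, limma adjusted p = 0.0494), and not without any 1 of the 6 db libraries (0.0644 to 0.175) or STZ-HFD replicate 1 or 4 (0.0557 and 0.0565). In STZ-HFD 0 of the 13 were called and 0 had an unadjusted p under 0.05, with Emd at −0.41 and Lmnb2 at 0.67.

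Among 20 Polycomb genes and other regulators or neighbours of Cdkn2a, Bmi1 was called higher in db/db, as were 1.23% of all genes. Bmi1 is the Polycomb protein that represses the Cdkn2a locus. It was at 43.3, 36.7 and 35.0 CPM in db/db and at 18.8, 11.8 and 17.5 CPM in db/+. The groups did not overlap, as in 25.8% of all genes in that model. The log2 fold change of Bmi1 was 1.30 (SE 0.29, limma adjusted p = 0.0322). Without db/db replicate 1, 2 or 3 or db/+ replicate 2 or 3 the adjusted p was 0.0579 to 0.134. Mtap, a neighbour of Cdkn2a on chromosome 4, was at 6.13, 5.57, 5.56 and 7.30 CPM in STZ-HFD and at 11.5, 9.61, 12.0 and 13.0 CPM in Con+Veh. These groups did not overlap either, as in 4.74% of all genes in that model, but the log2 fold change of −0.94 (limma adjusted p = 0.0244) was short of the fold minimum. Phc1, another Polycomb protein, was at −0.90 in STZ-HFD (limma adjusted p = 0.0738), and passed without Con+Veh replicate 2 (0.0314) or STZ-HFD replicate 2 (0.0289).

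Of the factors that senescent cells secrete, the senescence-associated secretory phenotype, Spp1, Igfbp6 and Fn1 were lower in STZ-HFD. Of 42 listed genes 29 were tested, and 3 were called lower and 0 higher, where 1.31% of all genes were called lower. The list had 24 negative log2 fold changes and a median of −0.61 beside −0.04 over all genes. Spp1, osteopontin, was at 174, 290.2, 139 and 259.8 CPM in STZ-HFD and at 583, 525, 1074 and 988 CPM in Con+Veh, for a log2 fold change of −2.25 (SE 0.29, limma adjusted p = 0.000892). Igfbp6, an IGF-binding protein, was at 33.6, 53.9, 38.7 and 36.6 CPM against 60.7, 66.8, 107 and 100.4 CPM (log2 fold change −1.32, adjusted p = 0.00824 by limma). Fn1, the matrix protein fibronectin, was at 510.3, 987, 732 and 1169 CPM against 1579, 1657, 2453 and 3836 CPM (log2 fold change −1.62, limma adjusted p = 0.0179). For all 3 genes the groups did not overlap, as in 4.74% of all genes in that model. Without Con+Veh replicate 3 each lost its call (limma adjusted p = 0.0564 for Spp1, 0.209 for Igfbp6 and 0.201 for Fn1). Igfbp6 also did so without Con+Veh replicate 4 or STZ-HFD replicate 3 or 4 (0.0553 to 0.102), and Fn1 without Con+Veh replicate 4 (0.163) or STZ-HFD replicate 3 (0.187).

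The chondrocyte-like sum was lower in STZ-HFD in the same libraries, with 0 of its 8 genes positive and 6 called lower, and the macrophage sum was 95.5 to 166 CPM in STZ-HFD and 133 to 264 CPM in Con+Veh, with 2 of 6 genes called lower. Their part in the secretory genes was not tested. In db/db the same list had a median of 0.33, with 0 called. An unadjusted p under 0.05 was found for 5 of 29 genes, where 21.1% of all genes had one. The smallest were those of the growth factor gene Fgf2 (0.91) and of Igfbp3 (0.94). Besides Il6, 12 listed secretory genes did not pass the filter, among them Il1a, Il1b, Ccl2, Cxcl1 and Cxcl2, which had at most 14 to 50 counts in any library. Of 14 tested genes of interleukin-6 signaling, 0 were called in either model, with 2 at an unadjusted p under 0.05 in each. Il6st, the shared receptor subunit gp130, had a log2 fold change of −0.52 in STZ-HFD (limma adjusted p = 0.182), and Osmr, the oncostatin M receptor, one of −0.54. In db/db the smallest p were those of the kinase Tyk2 (−0.94) and the receptor Il11ra1 (0.64). The edgeR quasi-likelihood test called 0 genes of the 9 lists in either model, while of the genes that limma called, DESeq2 also called the 3 secretory genes in STZ-HFD and Trp53inp1, Mki67 and Bmi1 in db/db. It did not call Tigar (DESeq2 adjusted p = 0.0976), Ccnd1 (0.0748) or H2az1 (0.134). Without quality weights, limma kept the call of Spp1 and lost those of the other eight genes called in the lists (limma adjusted p = 0.123 to 0.285). With the GC trend removed, Trp53inp1 (log2 fold change 0.87, limma adjusted p = 0.0797), Bmi1 (0.91, adjusted p = 0.105) and H2az1 (limma adjusted p = 0.0529) were not called, while Cdkn1c (limma adjusted p = 0.0178) and Igfbp3 (0.0491) were called in db/db.

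**Figure D5:**
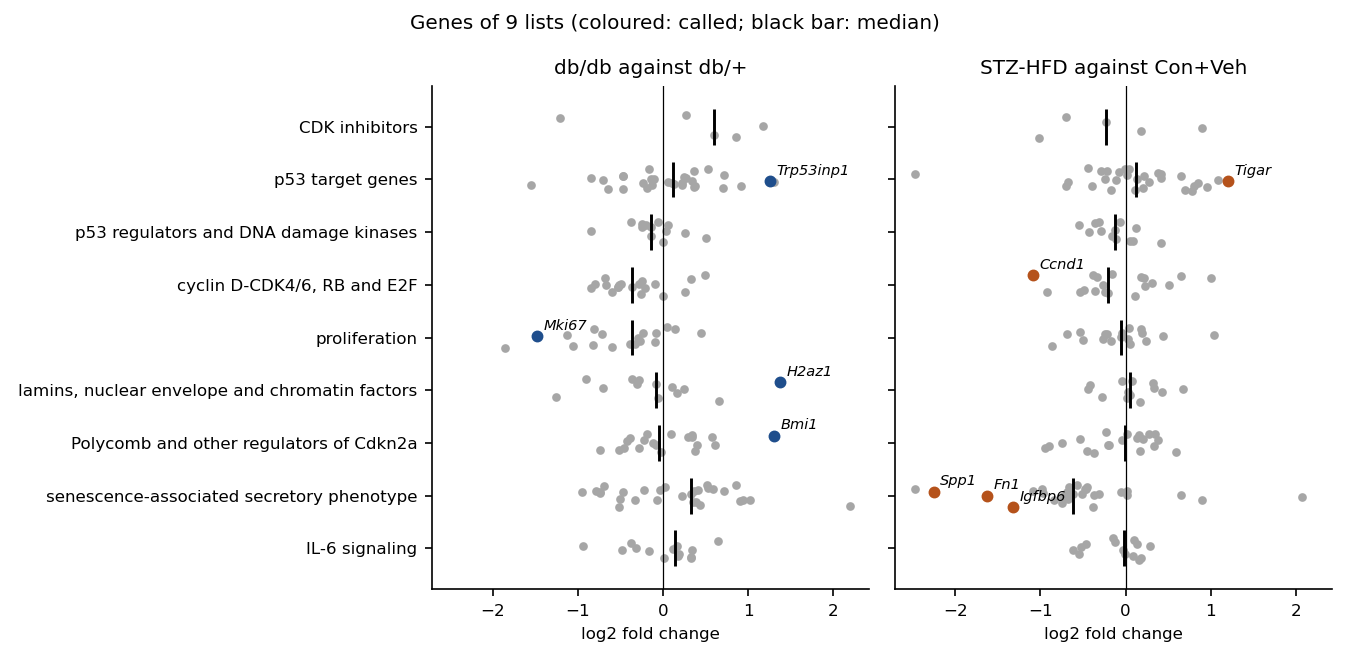
Log2 fold change (x axis) of the tested genes of 9 lists (y axis) in each model, 1 point per gene, with called genes coloured and named and the median of each list as a black bar. The secretory list in STZ-HFD has its median at −0.61 and 3 called genes, all lower.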

How the data were processed

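The authors sequenced amplified cDNA (SeqPlex kit) of pooled caudal discs, 1 library per mouse, and aligned the reads with STAR to Ensembl release 101. They deposited gene counts from featureCounts, as whole numbers without normalization, and estimated counts per transcript from Salmon, which holds only some transcripts of Mdm2, Trp53 and Il6. Strand use in counting is not given in the sources used here. Positions came from GENCODE M21.

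The study names normalization with edgeR, exclusion of low genes and limma's voomWithQualityWeights. The main test used edgeR 4.0.16 TMM factors and limma 3.58.1 in R 4.3.3. A filter of a CPM above 1 before scaling in at least 3 libraries and 1 fit over all 14 libraries with a mean per group were chosen here. Benjamini-Hochberg adjustment ran over the 16915 genes. Genes under the filter got two-sided exact permutation tests of log2 CPM (prior count 2), whose smallest p is 0.10 for 3 against 3 and 0.0286 for 4 against 4. DESeq2 1.42.0, edgeR's quasi-likelihood test, other filters, scalings and fits without single libraries were alternatives.

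The genes, the 9 lists and the 13 marker lists were chosen with earlier results of these data known. Genes to name were, per list and comparison, the called genes (at most 4) or otherwise the 2 with the smallest p, and the 3 most like each gene. Replicates are separate mice. Intervals of log2 fold changes come from the limma fit and hold the spread between mice, and floors of counts cover counting error only.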

Additional observations from a re-analysis of the deposited data

Results flagged for a closer look

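Cdkn2c, an inhibitor of CDK4 and CDK6, was at 6.71 CPM in STZ-HFD replicate 1, far from the other 3 libraries of the group, whose highest was 1.39 CPM. Il6 was at 0.216 CPM (4 counts) in Con+Veh replicate 4 and at 0 in the other 3 libraries, where any count in 1 library would stand apart, and a count of 0 allows up to 3 counts, so these values do not set that library apart. In all, 18 gene and group sets were examined. Chance flags about 1 in 20 such sets, a share that does not hold for sets with ties at 0.

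For 3 listed genes the change in db/db differed from that in STZ-HFD by limma's test of the difference. Spp1 had log2 fold changes of 0.42 and −2.25, which differed by 2.67 (SE 0.49, limma adjusted p = 0.0201), with the 4 STZ-HFD libraries below every Con+Veh library. Igfbp6 had 0.33 and −1.32, which differed by 1.64 (limma adjusted p = 0.0338). Mtap had 0.40 and −0.94, which differed by 1.34 (limma adjusted p = 0.0321). With edgeR's quasi-likelihood test the adjusted p of these differences were 0.163, 0.233 and 0.154. Mtap and Igfbp6 each kept the call in 5 of 14 fits without 1 library and Spp1 in 10.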

How the results depend on the processing

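In every alternative run that tested them, 0 of the 7 genes were called, and the smallest limma adjusted p of any was 0.0667 (Cdkn1a in STZ-HFD, without Con+Veh replicate 1). Cdkn1a kept its direction in all settings of each comparison, as did Cdkn2c, Mdm2 and Lmnb1 in db/db and Cdkn2c and Ccng1 in STZ-HFD. Signs turned as follows, and the causes were not tested. With gene totals from transcript counts, which hold only some transcripts of Mdm2 and Trp53, Trp53 was at 0.0095 in db/db and −0.15 in STZ-HFD (difference 0.16), Mdm2 at −1.12 in STZ-HFD (difference 0.18), Lmnb1 at 0.080, Emd at 0.72 and Ep300 at 0.41 in STZ-HFD, and Igfbp3 at −3.67 in db/db. With the GC trend removed, Ccng1 was at −0.15 in db/db, and the differences between the models were 0.099 for Cdkn2b and 0.33 for Cdkn2c. Lmnb1 in STZ-HFD was at 0.42 with edgeR, 0.46 with DESeq2 and 0.55 without quality weights, where Cdkn2b was at 0.45. The difference was 0.11 for Cdkn2c without the low-count filter and 0.0063 without ribosomal RNA genes, and 0.20 for Cdkn2b without both RIP libraries. Leaving out 1 library at a time gave −0.51 to 0.17 for Lmnb1 and −0.060 to 0.42 for Trp53 in STZ-HFD, and differences of −0.93 to 0.23 for Cdkn2b and −0.32 to 0.30 for Cdkn2c. It gave −0.18 to 0.92 for Cdkn2a in STZ-HFD and −0.40 to 1.25 for Il6 in db/db.

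The number of all genes called moved more than the members did. In db/db against db/+ it was 281, and 0 with edgeR (1891 at an unadjusted p under 0.05), 9 without quality weights, 534 without the filter, 436 with each model fitted alone, 148 from transcripts, 184 with the GC trend removed and 21 to 392 without single libraries. In STZ-HFD against Con+Veh it was 441, and 29 with edgeR, 272 with DESeq2, 19 without weights, 217 with filterByExpr, 130 without the filter, 287 fitted alone, 56 from transcripts, 244 without both RIP libraries and 17 to 642 without single libraries. For the difference it was 299, and 5 with edgeR, 3 without weights, 154 with filterByExpr, 62 from transcripts, 193 with the GC trend removed, 114 without both RIP libraries and 4 to 423 without single libraries. With each model fitted alone and the replicate number as a block it was 1125 in db/db and 5 in STZ-HFD, against 436 and 287 for that fit without the block, but same-numbered mice did not deviate together (r = −0.28 to 0.19), so the numbers were not taken to pair the libraries. Without both RIP libraries, a choice made after seeing the data, calls among listed genes in STZ-HFD fell to 0 for p53 targets and to 0 for the cyclin D axis, and for the difference to 0 of the Polycomb list and 1 of the secretory list. Without STZ-HFD replicate 1 the lamin list had 0 calls in db/db, and with no fold minimum the Polycomb list had 1 in STZ-HFD. Depth limited Cdkn2a and Il6 to at most 17 and 26 counts.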
